A study of Homo sapiens with 3 samples.

Results

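The genes described here encode chloride channels, anion exchangers of the same family, and volume-regulated anion channels, together with genes long grouped with them by name. They were chosen by symbol: CLCN, LRRC8, ANO (anoctamin), BEST (bestrophin), CLIC, CLCA and TTYH (tweety) genes, plus CFTR, CLNS1A and TMEM206 (now called PACC1). The rule found 43 of the 35880 gene symbols in the deposited table, namely 10 ANO, 9 CLCN, 6 CLIC, 5 LRRC8, 4 BEST, 3 CLCA and 3 TTYH genes and the 3 single genes. The samples were 3 libraries of untreated HEK293T cells, a human embryonic kidney line with SV40 large T antigen. Cells grew in high-glucose medium with 10% fetal bovine serum and were harvested at 70% confluence, and poly(A) RNA was made into directional libraries. All libraries form 1 group, so a gene's level was set against 1 TPM (a length-corrected share of all transcripts in a library) and family members were set against each other within libraries. The labels call the libraries biological replicates but name no separate cultures, and the p-values therefore rest on a spread that may be technical.

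Chloride is moved across membranes by proteins of unrelated folds. LRRC8 proteins assemble into the volume-regulated anion channel (VRAC), which opens when a cell swells and lets chloride and organic osmolytes out. LRRC8A is the subunit without which the channel does not work, and it assembles with the B, C, D or E paralog. CLC proteins are either plasma membrane chloride channels or chloride-proton exchangers of endosomes and lysosomes. Anoctamins include calcium-activated chloride channels and lipid scramblases. HEK293 cells are a standard host for recording expressed channels and have endogenous currents of their own, among them VRAC and an acid-activated anion current.

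Calls were above 1 TPM for 21 of the 43 genes, below it for 17 and undecided for CFTR and ANO4, while ANO3, CLCA1 and CLCA4 were listed at 0 in every library (limma moderated test of log2(TPM + 0.01), two-sided, Benjamini-Hochberg adjusted p under 0.05 over all 21990 symbols with a value). Among all symbols tested, 58.5% were called above and 33.9% below, and among protein-coding symbols 70.7% and 23.7%. The 40 tested channel genes had a median difference from 1 TPM of 2.26 on the log2 scale, beside 2.07 for all tested symbols and 3.42 for tested protein-coding symbols. The genes above 1 TPM were the 5 LRRC8 genes, 5 CLCN genes, 5 ANO genes, CLIC1 and CLIC4, TTYH2 and TTYH3, CLNS1A and TMEM206. No BEST or CLCA gene was above. Summed over all members the level was 796 ± 9.74 TPM, and 553 ± 4.76 TPM without CLNS1A (mean ± SD, n = 3 libraries, as for all levels here).

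**Figure D1:**
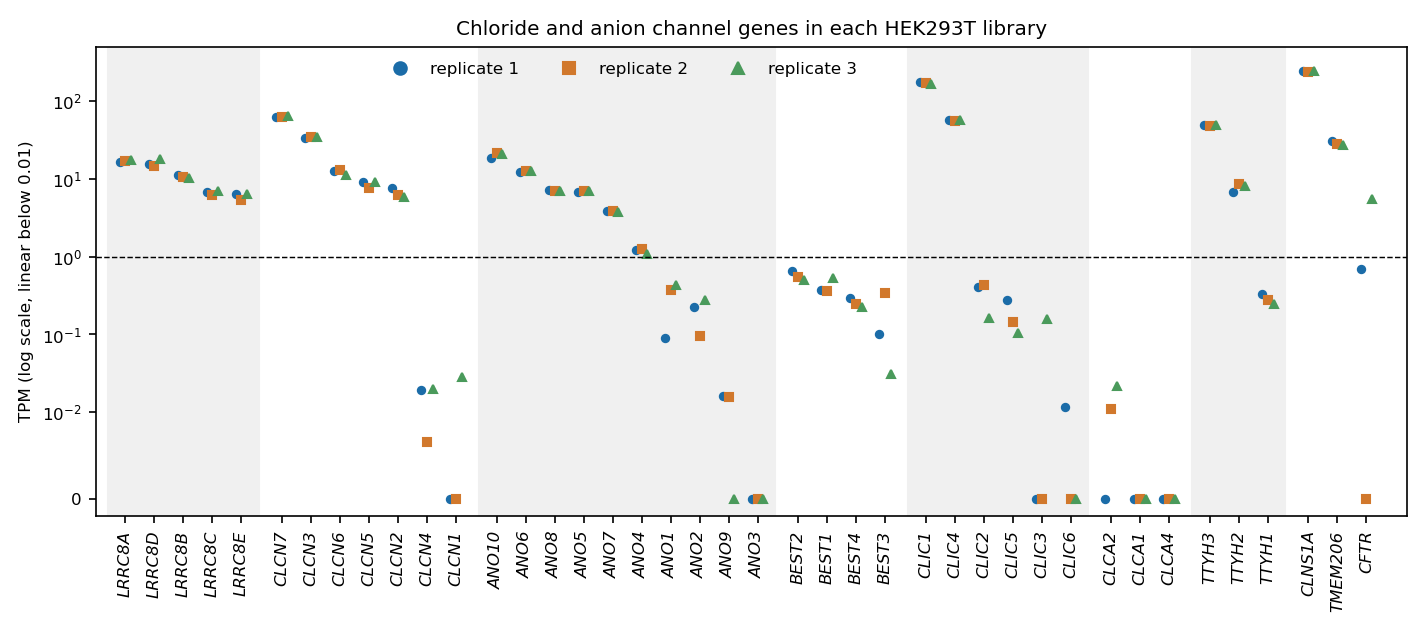
TPM of 41 of the channel genes in the 3 HEK293T libraries, grouped by family and ordered by mean level within a family. The vertical axis is logarithmic above 0.01 TPM and linear below it, and the dashed line marks 1 TPM. All LRRC8 points lie between 5.45 and 18.0 TPM, whereas CFTR is spread from 0 to 5.56 TPM.

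The deposited column of estimated counts names no library, but divided by effective length and rescaled it matches replicate 1, with relative differences in TPM of at most 1.08e-05. It sums to 33184885 reads, so 1 TPM over 2000 effective bases corresponds to about 47.5 reads. By that column CLIC4 had 5252 estimated reads, LRRC8A 1579, LRRC8E 327 and ANO4 46.0. Members below 0.05 TPM rested on very few reads: CLCN4 had 1.00 and ANO9 2.00. Among the 23 channel genes with a mean of at least 1 TPM the SD was a median of 4.37% of the mean (CV), beside 4.54% for the 13475 symbols at that level.

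All subunits of VRAC were present. LRRC8A had 16.6, 17.1 and 17.4 TPM in replicates 1, 2 and 3 (log2 difference from 1 TPM 4.08, SE 0.0304, limma adjusted p = 3.4e-08). LRRC8D, the paralog tied in human cells to the passage of larger organic solutes and platinum drugs, had 15.5, 14.8 and 18.0 TPM. The ranges of these genes overlap. LRRC8B stood at 11.3, 10.7 and 10.3 TPM, below every LRRC8A and LRRC8D value. LRRC8C had 6.82, 6.16 and 7.12 TPM and LRRC8E 6.42, 5.45 and 6.49 TPM, and these lowest subunits overlap each other.

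Each subunit was also compared with LRRC8A within libraries, in a limma fit over all symbols in which 65.1% of symbols were lower than LRRC8A and 32.1% higher. LRRC8B was lower by a log2 difference of -0.66 (SE 0.0545, limma adjusted p = 9.13e-05), LRRC8C by -1.35 (SE 0.0659, limma adjusted p = 1.19e-05) and LRRC8E by -1.48 (SE 0.0773, limma adjusted p = 1.51e-05), in 3 of 3 libraries each. The difference of LRRC8D from LRRC8A was -0.09 with a 95% interval from -0.24 to 0.07 (limma adjusted p = 0.208). Of the summed LRRC8 level of 56.7 ± 2.57 TPM, LRRC8A held 30.04% ± 1.28, LRRC8D 28.3% ± 1.77, LRRC8B 19.1% ± 1.40, LRRC8C 11.8% ± 0.383 and LRRC8E 10.8% ± 0.660. These are shares of transcripts and do not give the makeup of the channel protein.

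The place of LRRC8D rests on short transcripts. One of its entries, a coding fragment of 588 bases, held 32.1% ± 7.13 of its TPM, and entries under 1000 bases together held 40.1% ± 5.04 of its TPM but 6.90% of its estimated reads. When only entries of at least 1000 bases were summed (a choice made after seeing the data), LRRC8D fell to 9.57 ± 0.370 TPM, against 16.3 ± 0.157 TPM for LRRC8A, a log2 difference of -0.77 (limma adjusted p = 1.05e-06). LRRC8E fell to 3.97 ± 0.1998 TPM by the same count, while LRRC8B stood at 9.53 ± 0.0223 TPM and LRRC8C at 6.50 ± 0.312 TPM. By annotation 94.3% to 100% of the TPM of each LRRC8 gene lay in protein-coding entries. LRRC8B, LRRC8C and LRRC8D lie in a row on the plus strand of chromosome 1 (89524836 to 89597864, 89633072 to 89769903 and 89821014 to 89936611, hg38), LRRC8A on chromosome 9 (128882112 to 128918039) and LRRC8E on chromosome 19 (7888505 to 7902021).

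The most abundant CLC genes with all entries counted were CLCN7 and CLCN3. CLCN7, whose product works in lysosomes with the subunit OSTM1, had 63.2, 62.1 and 64.3 TPM. CLCN3, an endosomal exchanger, had 33.6, 34.9 and 34.9 TPM. The late endosomal CLCN6 had 12.6, 13.1 and 11.4 TPM, and CLCN5, which in kidney serves protein uptake by the proximal tubule, had 9.21, 7.65 and 9.22 TPM. CLCN2, a plasma membrane channel opened by hyperpolarization, had 7.74, 6.18 and 5.84 TPM. These 5 genes lay above 1 TPM in all libraries.

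CLCN1, the chloride channel of skeletal muscle, was listed at 0, 0 and 0.0281 TPM, and CLCN4, an endosomal exchanger, at 0.0191, 0.00656 and 0.0198 TPM. Both were called below 1 TPM (limma adjusted p = 0.0016 for CLCN1 and 0.000917 for CLCN4). BSND, a chloride channel subunit of kidney and inner ear counted among the partner genes, was also called below 1 TPM at 0.0456 ± 0.0180 TPM.

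The yardstick was CLCN7, the CLCN gene with the highest mean, and all 8 other CLCN genes were lower (86.9% of all symbols were lower and 11.7% higher). CLCN3 was lower by a log2 difference of -0.87 (SE 0.0286, limma adjusted p = 3.21e-06). That order depended on which transcripts were counted. Entries annotated as retained intron held 62.9% of the CLCN7 TPM. Its non-coding entries together held 63.3% of the TPM but 28.1% of the estimated reads. The most abundant entry in each library was a 581-base one with 33.5% ± 4.06 of the TPM but 6.74% of the estimated reads. In protein-coding entries alone CLCN3 stood at 34.0 ± 0.494 TPM and CLCN7 at 23.2 ± 0.464 TPM, and the log2 difference of CLCN3 from CLCN7 was 0.55 (limma adjusted p = 1.38e-06). In entries of at least 1000 bases the values were 33.8 ± 0.552 TPM and 27.9 ± 0.718 TPM, with CLCN3 again higher by 0.28 on the log2 scale (limma adjusted p = 2.27e-06).

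**Figure D2:**
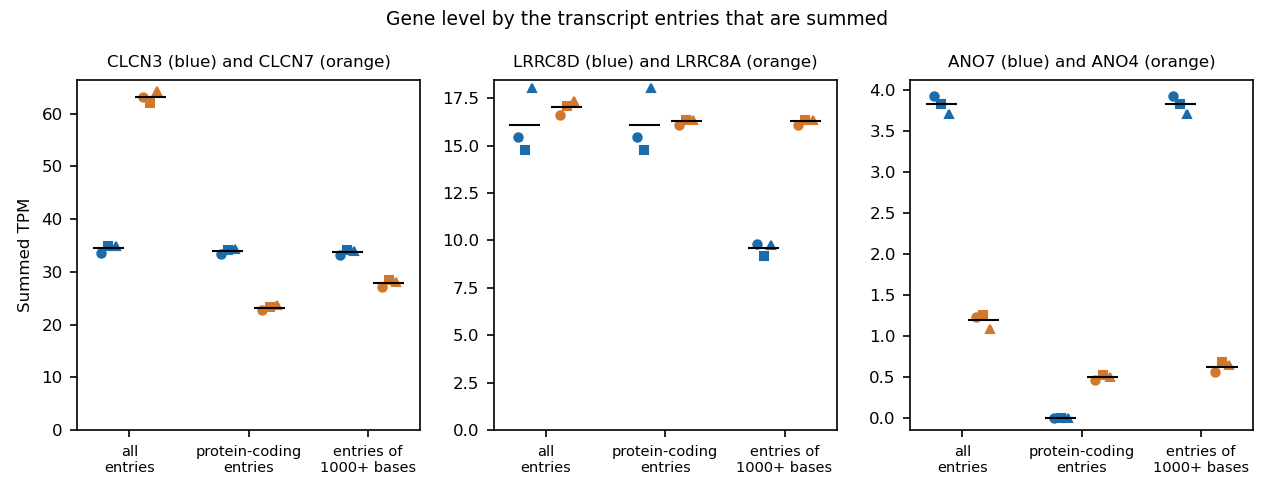
Summed TPM (vertical axes, linear) of 3 pairs of genes when all transcript entries, only protein-coding entries, or only entries of at least 1000 bases are summed. Circles, squares and triangles are replicates 1, 2 and 3, and bars are means. CLCN3 lies below CLCN7 with all entries and above it with either restriction, LRRC8D leaves the range of LRRC8A with long entries only, and ANO7 is at 0 in protein-coding entries.

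The 581-base CLCN7 entry holds exon 1 in part, an exon of its own, and exons 2 and 3 of the long coding transcript, and then runs past the end of exon 4 into the intron. Its last exon is shown because it marks where this entry parts from the coding transcript: on the minus strand of hg38, chr16:1460770-1460948, the lower-case letters are exon 4 of the coding transcript and the 46 capitals are intron.
CLCN7 entry last exon: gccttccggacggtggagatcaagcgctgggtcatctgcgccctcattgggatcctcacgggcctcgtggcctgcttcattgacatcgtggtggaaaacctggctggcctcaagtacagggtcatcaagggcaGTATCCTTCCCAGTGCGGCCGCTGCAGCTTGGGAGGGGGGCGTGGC
Other CLC genes also differed in the kind of transcript that carried them. For CLCN3 98.7% of the TPM lay in protein-coding entries, and for CLCN5 90.5%. For CLCN6 it was 47.0%, with 53.0% in processed transcripts that held 12.5% of the estimated reads. In protein-coding entries CLCN6 had a mean of 5.77 ± 0.0380 TPM, below the 7.87 ± 0.899 TPM of CLCN5. In entries of at least 1000 bases they had 7.52 ± 0.497 and 7.07 ± 0.261 TPM. For CLCN2 39.1% was protein-coding, 37.0% retained intron and 23.9% nonsense-mediated decay, and here the non-coding entries held 56.3% of the estimated reads as well.

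Of the anoctamins, the calcium-activated chloride channels proper were low and several others were not. ANO1, the epithelial and smooth muscle channel, had 0.0907, 0.375 and 0.428 TPM, and ANO2, known from olfactory neurons, had 0.223, 0.0963 and 0.281 TPM. Both were called below 1 TPM. The ANO1 call (limma adjusted p = 0.0212) ended without replicate 2 (limma adjusted p = 0.0663). ANO10, an intracellular anoctamin whose loss causes a cerebellar ataxia, was highest at 18.6, 21.9 and 20.7 TPM. ANO6, the scramblase that exposes phosphatidylserine on the cell surface, followed at 12.4, 12.9 and 12.6 TPM.

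ANO8, which links the endoplasmic reticulum to the plasma membrane, had 7.14, 7.07 and 7.09 TPM, the smallest relative spread of these genes with at least 1 TPM (CV 0.507%). ANO5, tied to muscle membrane repair, had 6.87, 7.11 and 6.96 TPM. ANO4 was undecided at 1.23, 1.26 and 1.09 TPM, ANO9 was called below at 0.0160, 0.0157 and 0 TPM, and ANO3 was listed at 0. Set against ANO6 (60.5% of all symbols lower, 36.6% higher), ANO10 was higher by 0.69 on the log2 scale (SE 0.0479, limma adjusted p = 5.46e-05) and the 7 others with a value were lower. ANO8 differed by -0.83 (SE 0.0523, limma adjusted p = 3.81e-05) and ANO5 by -0.85 (SE 0.0514, limma adjusted p = 3.25e-05).

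ANO7, best known from prostate, was listed at 3.93, 3.83 and 3.72 TPM, above 1 TPM (log2 difference 1.92, limma adjusted p = 9.23e-06), yet none of that lay in a protein-coding entry. Its TPM came from 2 retained-intron entries of 2196 and 2139 bases, which held 78.0% ± 3.21 and 22.0% ± 3.21 and had 148 and 35.8 estimated reads. Both start in or just before exon 21 of the 25 exons of the long coding transcript and run into the last exon, and each keeps the introns before and after exon 23. The shorter of these is shown with 20 exonic bases on each side (plus strand, chr2:241223762-241223924, hg38), intron in capitals. It lies between exons 23 and 24 and is 123 bases long.
ANO7 entry intron: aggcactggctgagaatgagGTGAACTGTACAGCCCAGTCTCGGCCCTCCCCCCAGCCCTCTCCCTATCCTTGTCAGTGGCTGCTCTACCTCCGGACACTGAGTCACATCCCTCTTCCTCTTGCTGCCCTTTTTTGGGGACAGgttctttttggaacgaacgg
For ANO4 the restriction also changed the call: its protein-coding entries summed to 0.496 ± 0.0350 TPM, called below 1 TPM (limma adjusted p = 0.0017). Of its TPM 45.9% lay in processed transcripts and 9.36% in nonsense-mediated decay entries. These non-coding entries held only 12.5% of its 46.0 estimated reads. ANO10 and ANO6 were 96.9% and 91.7% protein-coding and kept their order. Entries under 1000 bases held 23.1% of the ANO10 TPM but 3.12% of its estimated reads. In longer entries ANO10 stood at 15.6 ± 0.436 TPM and ANO6 at 12.4 ± 0.251 TPM, a smaller gap than with all entries.

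**Figure D3:**
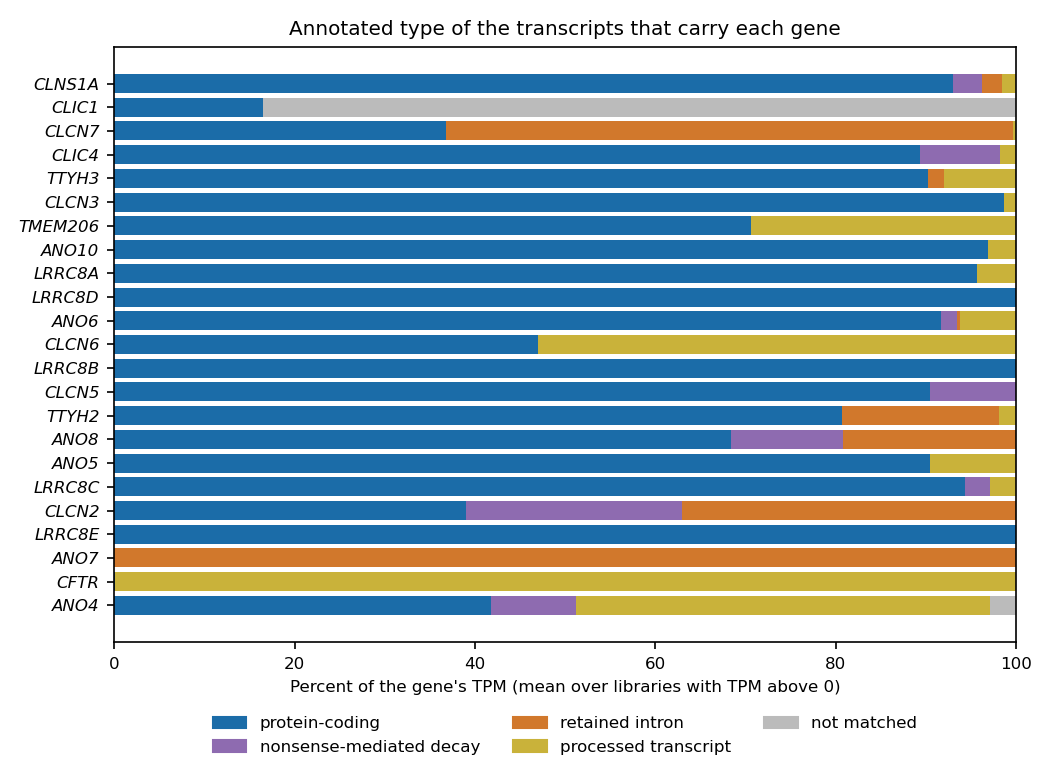
Percent of each gene's TPM (horizontal axis, mean over the libraries with a value above 0) held by transcripts of each annotated type, for the 23 channel genes with a mean of at least 1 TPM, ordered by level from top to bottom. ANO7 is entirely retained intron, CFTR almost entirely processed transcript, CLCN7 62.9% retained intron, and 83.5% of CLIC1 lies in entries that were not matched to the annotation.

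CFTR, the cAMP-regulated chloride channel of epithelia, was the most variable member with at least 1 TPM. Its level was 0.687 TPM in replicate 1, 0 in replicate 2 and 5.56 TPM in replicate 3, a CV of 146%, and it was undecided (limma adjusted p = 0.452). The mean of 2.08 TPM lay above 1 TPM while the mean on the log2 scale lay below it, by -1.58. Nearly all of it (99.9% of the TPM where there was any) sat on 1 processed transcript of 222 bases, whose effective length is so short that 1 read gave 0.687 TPM. At the depth and effective length of the deposited counts, the 3 values correspond to 1.00, 0 and 8.09 reads. The long coding entry with 27 exons was at 0 in every library, and all protein-coding entries together reached 0.00338 TPM on average, called below 1 TPM (limma adjusted p = 0.000233).

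The CLIC genes, which encode small proteins of glutathione transferase fold that occur both soluble and in membranes, split into abundant and scarce members. CLIC1 had 175, 171 and 167 TPM and CLIC4 56.9, 56.2 and 57.6 TPM, and together they held nearly all of the CLIC sum of 228 ± 3.97 TPM (74.8% and 24.9%). CLIC2 (0.414, 0.435 and 0.163 TPM), CLIC5 (0.280, 0.143 and 0.103 TPM), CLIC3 (0, 0 and 0.160 TPM) and CLIC6 (0.0117, 0 and 0 TPM) were all called below 1 TPM. The CLIC3 call (limma adjusted p = 0.0086) ended without replicate 1 or 2 (0.0658 and 0.0600), and that of CLIC2 (0.0129) without replicate 1 (0.0511).

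CLIC4 was lower than CLIC1 by a log2 difference of -1.58 (SE 0.0294, limma adjusted p = 1.18e-07), in a fit where 95.8% of all symbols were lower than CLIC1 and 3.76% higher. CLIC1 lies in the major histocompatibility region of chromosome 6 (31730581 to 31739763, hg38), for which the assembly also holds alternate haplotype sequences. The table lists 35 CLIC1 entries, of which 30 were not matched to the primary annotation. Among them, 5 of 1254 bases had the same TPM (within 0.001) as the annotated main transcript, and these 6 entries together held 94.2% of the gene in replicate 1. With annotated protein-coding entries only, CLIC4 (50.9 ± 0.980 TPM) appeared higher than CLIC1 (28.1 ± 0.674 TPM). With unmatched entries kept (added after seeing the data) CLIC4 was again lower, by -1.75 on the log2 scale (limma adjusted p = 9.95e-09).

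Of the tweety genes, whose products have been described as large-conductance anion channels, TTYH3 had 49.4, 48.5 and 50.3 TPM and TTYH2 6.79, 8.64 and 8.16 TPM. TTYH1, a gene of brain and neural stem cells, was called below 1 TPM at 0.328, 0.276 and 0.245 TPM. Against TTYH3 (83.4% of all symbols lower, 14.9% higher) TTYH2 was lower by -2.66 on the log2 scale (SE 0.0843, limma adjusted p = 3.43e-06) and TTYH1 by -7.41 (SE 0.273, limma adjusted p = 5.66e-06). The spread of TTYH2 went with a 540-base retained-intron entry listed at 0.0191, 1.55 and 1.61 TPM, and in protein-coding entries it stood at 6.28 ± 0.107 TPM. TTYH1 had 64 entries, of which 17 were matched to the annotation and none of the matched coding ones had a value above 0.

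TMEM206 and CLNS1A were both well above 1 TPM. TMEM206 encodes the proton-activated chloride channel, which underlies the acid-activated current of HEK293 cells, and had 30.7, 28.0 and 27.1 TPM (limma adjusted p = 6.48e-08). Its protein-coding entries held 70.6% of that. CLNS1A encodes pICln, first proposed as a chloride current regulator and now known for its part in assembling spliceosomal ribonucleoproteins. With all entries counted it was the highest member at 248, 237 and 243 TPM, rank 582 among all symbols. Entries under 1000 bases held 57.2% ± 1.37 of its TPM and also 46.3% of its estimated reads. The longer ones summed to 104 ± 1.13 TPM, below the 171 ± 4.09 TPM of CLIC1 in such entries. In protein-coding entries CLNS1A stood at 225 ± 4.76 TPM, above CLIC1 with its unmatched entries kept (171 ± 4.09 TPM) or left out (28.1 ± 0.674 TPM).

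The bestrophins and CLCA genes were low throughout. BEST1, the calcium-activated channel of the retinal pigment epithelium, had 0.378, 0.360 and 0.529 TPM, BEST2 0.662, 0.556 and 0.503 TPM, BEST4 0.299, 0.248 and 0.227 TPM, and BEST3 0.102, 0.342 and 0.0312 TPM. All 4 were called below 1 TPM, with BEST2 (limma adjusted p = 0.0141) losing its call without replicate 2 or 3 (0.0514 and 0.0525) and BEST3 (0.0122) without replicate 1 (0.0814). Against BEST1 (27.4% of all symbols lower, 63.4% higher) BEST3 was lower by -1.86 on the log2 scale (limma adjusted p = 0.00295), a call that ended without replicate 3 (limma adjusted p = 0.19). BEST2 differed from BEST1 by 0.45, with a 95% interval from -0.30 to 1.19, and BEST4 by -0.68, with an interval from -1.60 to 0.25. A 643-base entry held 93.1% of BEST2, so this gene was above BEST1 in protein-coding entries (log2 difference 1.11) and below it in entries of at least 1000 bases (-3.53). BEST1 overlaps the ferritin gene FTH1 on the opposite strand over 5798 bases, and FTH1 had 1063, 1069 and 1061 TPM. Whether its reads entered the BEST1 value was not tested. CLCA1 encodes a secreted protein that modulates a chloride channel and is not a channel itself. The 3 CLCA genes sit in a cluster on chromosome 1 (86424086 to 86580754, hg38). CLCA2 was called below 1 TPM at 0, 0.0109 and 0.0218 TPM, while CLCA1 and CLCA4 were listed at 0.

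Ordered by mean level with all entries counted, the leading members did not overlap: CLNS1A, CLIC1, CLCN7, CLIC4, TTYH3, CLCN3, TMEM206 and ANO10 each had all 3 values above those of the next, ANO10 above LRRC8A. That order did not hold in entries of at least 1000 bases. There ANO10 had 15.6 ± 0.436 TPM and LRRC8A 16.3 ± 0.157 TPM, and CLCN7 (27.9 ± 0.718 TPM) lay below CLIC4 (55.9 ± 0.364 TPM) and TTYH3 (41.1 ± 1.32 TPM). With all entries counted, LRRC8A and LRRC8D overlapped, as did ANO6 and CLCN6. From CLCN5 down through TTYH2, ANO8, ANO5, LRRC8C, CLCN2 and LRRC8E every neighbouring pair overlapped. Genes farther apart in that run could still separate: all values of CLCN5 lay above those of ANO8, and all values of ANO8 and ANO5 above those of LRRC8E.

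Promoter sequence was compared with level because the rule did not use it. RefSeq promoter windows (GRCh38.p14, 250 bases before to 50 after the start) were found for 36 of the 43 genes, TMEM206 under its current symbol PACC1. ANO8, ANO9, BEST1, BEST3 and CLIC6 were among those not matched. The 20 matched genes above 1 TPM had a median of 29 CpG dinucleotides (the letters CG, which read the same on both strands) in the 300 bases, and the 14 matched genes below it or at 0 had a median of 5. The same counts over protein-coding symbols were 27 for 9656 above and 6 for 4545 below or at 0. Under 10 CpG were present in 3 of the 20 genes above 1 TPM and in 9 of the 14 others, beside 8.66% and 62.7% of all protein-coding symbols. All 5 LRRC8 promoters had 28 or more.

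Single genes departed from that pattern. ANO6 had 2 CpG at 12.6 ± 0.216 TPM, ANO7 had 8 and ANO5 had 9, whereas ANO1 and TTYH1 had 36 and 38 CpG while below 1 TPM. CLIC1 and CLNS1A, the most abundant members, had 13 and 15. The window surrounds 1 start per gene, which need not be the start used in these cells. For ANO7, all TPM came from entries annotated to start in or just before exon 21 of 25. The promoters of LRRC8A (31 CpG, chr9:128881883-128882182, plus strand) and CLCA1 (6 CpG, chr1:86468677-86468976, plus strand) are shown as a gene above 1 TPM and a gene listed at 0, with CpG in capitals.
LRRC8A promoter: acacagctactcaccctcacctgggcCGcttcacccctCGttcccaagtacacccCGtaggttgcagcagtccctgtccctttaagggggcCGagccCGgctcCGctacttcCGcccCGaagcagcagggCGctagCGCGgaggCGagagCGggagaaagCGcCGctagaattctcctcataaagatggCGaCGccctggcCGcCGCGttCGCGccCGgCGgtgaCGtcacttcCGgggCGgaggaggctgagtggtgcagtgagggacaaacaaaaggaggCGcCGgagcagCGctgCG
CLCA1 promoter: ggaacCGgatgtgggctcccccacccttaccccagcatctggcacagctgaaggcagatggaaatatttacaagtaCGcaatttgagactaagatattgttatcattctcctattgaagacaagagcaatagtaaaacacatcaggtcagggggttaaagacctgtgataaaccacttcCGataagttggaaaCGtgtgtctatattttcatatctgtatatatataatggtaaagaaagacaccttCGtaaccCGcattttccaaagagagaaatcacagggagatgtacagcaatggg

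**Figure D4:**
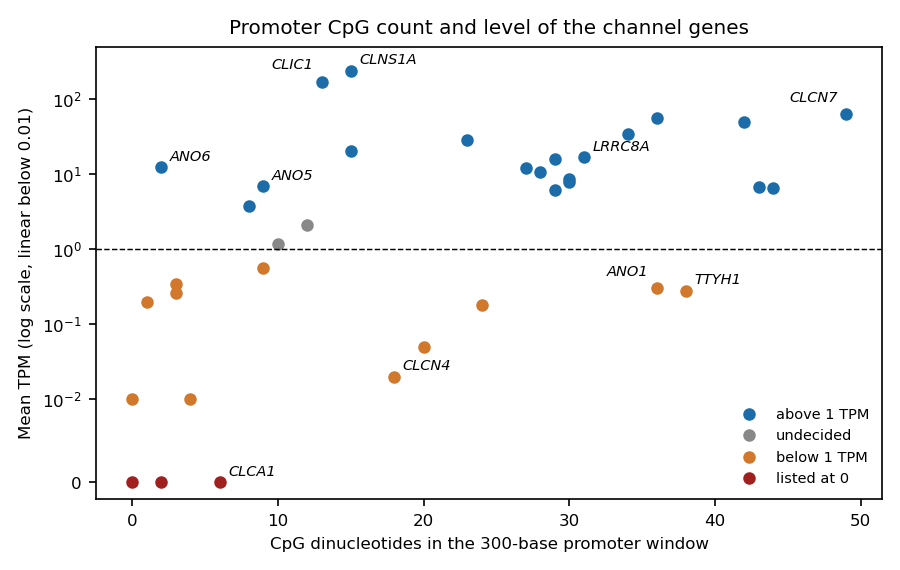
Number of CpG dinucleotides in the 300-base RefSeq promoter window (horizontal axis) against mean TPM over 3 libraries (vertical axis, logarithmic above 0.01 and linear below) for the 36 channel genes with a window. Colours give the call against 1 TPM. Genes listed at 0 have 6 CpG or fewer, while ANO1 and TTYH1 lie below 1 TPM with 36 and 38.

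Partner and regulator genes were counted from a list of 38, of which 37 were in the table. GLIALCAM was not found under that symbol, and no other symbol was tried for it. Of the 37, 23 lay above 1 TPM, 10 below, MLC1 was undecided, and SLC26A3, SLC26A5 and SLC26A9 were listed at 0. The list thus had 34 tested genes. Among all tested protein-coding symbols 70.7% were called above 1 TPM and 23.7% below. Subunits of intracellular CLC exchangers were present: OSTM1, the partner of CLCN7, had 17.5 ± 1.80 TPM, and TMEM9 and TMEM9B, which bind the endosomal exchangers, had 114 ± 1.28 and 16.7 ± 0.717 TPM. CLCC1, a chloride channel of the endoplasmic reticulum, had 39.2 ± 2.48 TPM. The PDZ scaffolds of apical transporters SLC9A3R1 and SLC9A3R2 reached 55.7 ± 0.146 and 49.6 ± 2.09 TPM, and the scaffold PDZK1 lay below 1 TPM at 0.148 ± 0.0868 TPM.

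The kinases that sense chloride and cell volume were all above 1 TPM with all entries counted, and WNK4 was undecided in protein-coding entries alone. WNK1 had 66.3 ± 1.58 TPM, WNK2 42.2 ± 3.38, WNK3 4.17 ± 0.255 and WNK4 2.39 ± 0.273 TPM, and their downstream kinases OXSR1 and STK39 had 35.7 ± 0.613 and 14.2 ± 0.421 TPM. Among their targets, the cation-chloride cotransporters, SLC12A2 (NKCC1, which loads cells with chloride) had 18.8 ± 0.933 TPM and the potassium-chloride exporters SLC12A7 and SLC12A4 had 13.5 ± 0.531 and 6.66 ± 0.215 TPM. The neuronal exporter SLC12A5 was listed at 5.34 ± 1.86 TPM, but in entries of at least 1000 bases it was called below 1 TPM (log2 difference -2.22, limma adjusted p = 0.000506). The kidney cotransporters SLC12A1 and SLC12A3 were low at 0.0143 ± 0.0169 and 0.0165 ± 0.0148 TPM. The osmotic stress factor NFAT5 had 9.82 ± 0.248 TPM.

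Among anion exchangers, SLC4A2 was the highest gene of the list at 149 ± 3.37 TPM, and SLC4A3 had 2.33 ± 0.0700 TPM. In protein-coding entries alone the SLC4A3 call was lost (log2 difference 0.37, limma adjusted p = 0.0534). SLC26A6, SLC26A11 and SLC26A2 had 34.6 ± 1.19, 18.2 ± 1.10 and 9.66 ± 0.0940 TPM. The genes below 1 TPM were SLC4A1 (the red cell and intercalated cell exchanger), SLC26A1, SLC26A4, SLC26A7 and SLC26A8, the water channel AQP1, PDZK1, BSND, SLC12A1 and SLC12A3. The AQP1 call (limma adjusted p = 0.0286) ended without replicate 1 or 3 (0.1 and 0.0659), SLC26A4 (0.0107) without replicate 2 or 3 (0.0640 and 0.0582), and SLC26A7 (0.00953) without replicate 1 (0.0714).

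**Figure D5:**
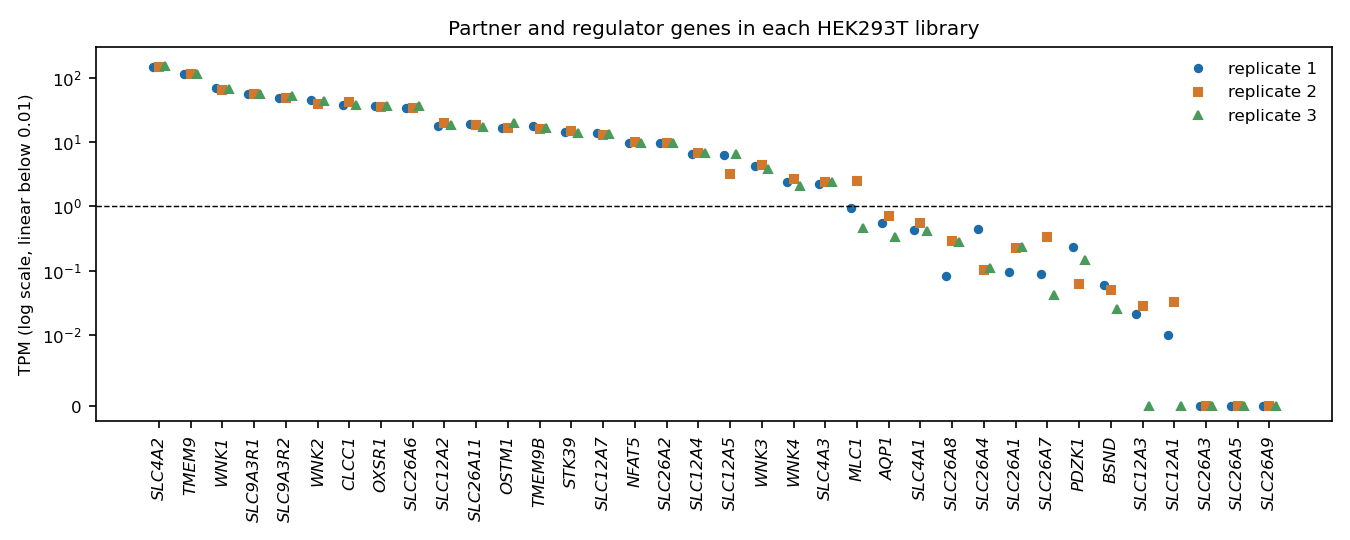
TPM of 36 of the partner and regulator genes in each of the 3 HEK293T libraries, ordered by mean level. The vertical axis is logarithmic above 0.01 TPM and linear below it, and the dashed line marks 1 TPM. Points run from SLC4A2 near 149 TPM to SLC26A3, SLC26A5 and SLC26A9 at 0.

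Markers of tissues in which the restricted members are best known were mostly low or at 0. For comparison, 70.7% of tested protein-coding symbols were called above 1 TPM and 23.7% below. Of all 19797 protein-coding symbols, 2577 were listed at 0. Of 9 kidney tubule genes only the endocytic receptor gene LRP2 lay above 1 TPM (7.24 ± 0.503 TPM), 3 lay below, ATP6V1B1 was undecided at 1.51 ± 0.513 TPM, and UMOD, AQP2, AVPR2 and FOXI1 were listed at 0. Of the calls below, ATP6V0D2 (limma adjusted p = 0.0449) was lost whichever library was left out (0.0666 to 0.128) and CALB1 (0.0163) without replicate 2 or 3 (0.0813 and 0.0545). No gene of the skeletal muscle (6 genes), retinal pigment epithelium (5) or airway and goblet cell (6) lists was called above 1 TPM, and MYH2, MYH7, RPE65, RLBP1, SCGB1A1 and TFF3 were among those at 0. The muscle gene ACTA1 was undecided at 1.08, 0.908 and 0.959 TPM (limma adjusted p = 0.849). In these lists the call below of RYR1 (limma adjusted p = 0.0183) ended without replicate 1 or 2 (0.111 and 0.101), and that of MLANA (0.0132) without replicate 1 (0.0509). In bulk RNA, few cells with a transcript and little of it per cell cannot be told apart.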

How the data were processed

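RNA from 3 libraries of untreated HEK293T cells was measured. The submitters' processing notes name kallisto and hg38; the sources used here do not give its version, options, strand setting or transcript release. The authors' deposited table holds TPM per transcript and library, scaled within each library, and 1 column of estimated counts that names no library. These counts and the deposited transcript and effective lengths served only for read numbers. No count test was run, because the counts column names no library.

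TPM was summed by symbol. Transcript types, positions and sequences came from GENCODE 29 (hg38), which matched 318 of 398 channel gene transcripts, and 77 of the 80 others belong to CLIC1 or TTYH1. That release may differ from the authors'. TPM gives short entries high values from few reads. Levels and differences from 1 reference gene per family were tested with limma 3.58.1 (R 4.3.3, mean-variance trend) on log2(TPM + 0.01), over all symbols above 0 in at least 1 library. The reference genes were LRRC8A, CLCN7, ANO6, BEST1, CLIC1 and TTYH3. All but ANO6 and BEST1 had the highest mean of their family with all entries counted. That other members lay lower in those families therefore follows from the choice. Differences on this scale understate those of low genes. The fits were tested on simulated data. Words of 31 bases in each member's matched transcripts were compared with those of other symbols on the transcript strand. Among the genes reported here, the share also found under another symbol was largest for CLIC1 (8.52%), CLIC4 (6.82%) and LRRC8D (6.27%). Whether reads of other symbols entered these levels was not tested. Scaling factors came from edgeR 4.0.16 and, for the median of ratios, from R.

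Genes, lists and tests were chosen with earlier results of these data known. By the naming rule, every member is given with its values, and of the lists, genes above 1 TPM and those at 0 are named. A few genes and 1 sequence are not reported here, though the genes remain in the fits and counts. Alternatives were other pseudocounts, levels, filters, scalings and transcript sets, and leaving out each library.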

Additional observations from a re-analysis of the deposited data

How the results depend on the processing

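With other pseudocounts, TMM or median-of-ratios scaling, and rescaling without mitochondrially encoded genes, the channel gene calls of 21 above and 17 below 1 TPM did not change in number. Leaving out a library gave 21 above and 12 to 13 below. Testing only genes of mean TPM of at least 0.1 left 10 below, since fewer were tested.

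Over these alternatives and the transcript sets below, 444 of 462 single channel gene levels with a value kept direction and side of the threshold; genes whose remaining entries were all at 0, such as ANO7 in protein-coding entries, are not among the 462. Protein-coding entries only gave 4 members above the reference gene of their family (1 with all entries). CLCN3 minus CLCN7 was at 0.55 and CLIC4 minus CLIC1 at 0.85. Levels relative to 1 TPM were -0.9998 for ANO4, -0.14 for ATP6V1B1, -0.68 for MLC1 and -0.0392 for WNK4 (all log2). Keeping unmatched entries gave 3 such members and the same values, except -0.91 for ANO4 and no change of order for CLIC4. Entries of at least 1000 bases gave 2 such members, CLCN3 minus CLCN7 at 0.28, BEST2 minus BEST1 at -3.53, and -0.67 for ANO4, -0.80 for ATP6V1B1, -1.26 for MLC1 and -2.22 for SLC12A5. These last 2 sets were added after seeing the data.

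CFTR was at 0.16 with a pseudocount of 1 and ranged from -3.60 to 0.96 when a library was left out; MLC1 ranged from -0.61 to 0.60 and ACTA1 from -0.10 to 0.0255. ACTA1 was at 0.069 without mitochondrially encoded genes and stayed undecided (limma adjusted p = 0.651). In that setting 2 marker genes lay above 1 TPM (1 with all genes), the added one being ATP6V1B1 (log2 difference 0.635, limma adjusted p = 0.0457). When a library was left out, 1 to 2 marker genes lay above 1 TPM. ATP6V1B1 was again the added one, without replicate 3 (log2 difference 0.761, limma adjusted p = 0.0413). Against 0.5 TPM, 6 partner genes and 7 marker genes lay below and 4 marker genes above. No analysis that pairs groups could be made, since there is only 1 group; differences between genes were taken within libraries. Below about 0.05 TPM a level rests on very few reads, so no order among such genes can be read. Some genes between that level and 1 TPM also rest on few reads, such as BEST3 and BEST2 (4.42 and 8.25 estimated reads). Their order is uncertain too.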
